A study of Mus musculus with 6 samples.

Results

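The genes described here control fluid in the uterine lumen: the water channel genes Aqp1, Aqp3, Aqp5, Aqp8 and Aqp11, the sodium channel genes Scnn1a, Scnn1b and Scnn1g, the chloride channel gene Cftr and the kinase gene Sgk1. They were chosen by name, and every probe that carries 1 of these 10 symbols was taken, which gave 15 of the 45281 probes on the array, for 10 of 28891 named genes. Luminal epithelium of the mouse uterus, 3.5 days post coitum, gave RNA for 6 Illumina arrays on 1 chip. The 3 Control arrays are A, B and C, and the 3 arrays of the conditional knockout (CKO) are D, E and F, so place on the chip cannot be told apart from group. CKO females carried Alk3flox/flox together with Pgrcre/+, so Cre made from the progesterone receptor locus removed a floxed part of Alk3 (Bmpr1a), a receptor for bone morphogenetic proteins (BMPs). Cre made from this locus is active in the uterine stroma and muscle as well as in the epithelium. All mice had a hybrid C57BL/6J and 129S5/SvEvBrd background; the labels give no age and no alleles for Control. They do not tie the arrays to separate animals either; a p-value here covers only array-to-array spread, which may be technical.

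By limma, 0 of the 8 genes that could be tested differed between CKO and Control after adjustment, where 0.0168% of all genes tested were called higher in CKO and 0% lower. Aqp8 had the clearest separation: its normalised signal was 2.25-fold higher in CKO, and on its brighter probe every CKO array lay above every Control array. That probe was above background (detection p-value under 0.05) on only 2 of the 3 Control arrays. It could be tested only because CKO arrays were counted as well, and its raw groups overlapped. Its log2 difference was 1.17 as processed and 0.60 with no background correction. Aqp3 was lower on every CKO array, by a small amount. Sgk1 varied 28.2-fold among the 3 Control arrays and 1.56-fold among the 3 CKO arrays. Aqp11, Scnn1a and Cftr were lowest on CKO array E, where Aqp5, Aqp8 and Scnn1b were highest.

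Water crosses an epithelium through aquaporins, following salt. ENaC, the epithelial sodium channel, is built from the subunits encoded by Scnn1a, Scnn1b and Scnn1g and takes up sodium from the lumen, while CFTR, a chloride channel opened by cyclic AMP, lets chloride and fluid out into it. SGK1, a kinase induced by steroid hormones, keeps ENaC at the cell surface by blocking the ubiquitin ligase NEDD4L. In the rodent uterus estrogen favours fluid secretion and progesterone favours absorption, and the lumen closes around the embryo before it attaches.

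Promoter sequence, from RefSeq on GRCm38.p6, was found for 9 of the 10 genes, Scnn1a being the exception. It is shown for the genes whose groups did not overlap, Aqp8 and Aqp3, and for Sgk1, which varied most among the arrays. Each is the 250 bases before a transcription start, read 5′ to 3′ on the gene's strand. Capitals mark GGCGCC, an element of SMADs activated by BMPs, in Aqp3, and, in Sgk1, the element of progesterone and corticosteroid receptors, which is AGAACA and TGTTCT with any 3 bases (NNN) between. Aqp8 (chr7:123462044-123462293, plus strand) held neither, nor the estrogen receptor element (GGTCA and TGACC with any 3 bases between), nor TGACGTCA, the element of the cyclic AMP factor CREB. Aqp3 is at chr4:41098184-41098433, minus strand, and the Sgk1 window at chr10:21993640-21993889, plus strand. Of the 6 Sgk1 windows, this window was chosen for display because it holds the receptor element.
Aqp8: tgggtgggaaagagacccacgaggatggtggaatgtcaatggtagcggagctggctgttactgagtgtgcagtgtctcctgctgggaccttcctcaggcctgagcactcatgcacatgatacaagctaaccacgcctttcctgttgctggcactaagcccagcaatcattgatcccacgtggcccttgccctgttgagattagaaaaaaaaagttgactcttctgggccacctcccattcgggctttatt
Aqp3: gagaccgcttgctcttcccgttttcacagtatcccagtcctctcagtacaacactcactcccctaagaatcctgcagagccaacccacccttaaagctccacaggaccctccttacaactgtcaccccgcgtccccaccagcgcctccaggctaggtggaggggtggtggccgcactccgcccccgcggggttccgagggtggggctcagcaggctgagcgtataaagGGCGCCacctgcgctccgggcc
Sgk1: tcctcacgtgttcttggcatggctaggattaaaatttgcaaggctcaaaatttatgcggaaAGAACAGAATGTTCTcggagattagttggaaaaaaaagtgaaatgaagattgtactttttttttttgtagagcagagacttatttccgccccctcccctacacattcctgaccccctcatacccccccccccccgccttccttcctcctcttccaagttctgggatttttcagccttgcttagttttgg

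Both strands were searched. The full receptor element of Sgk1 was present in 3 of 32851 windows of this length over all genes (0.00913%), among them 1 of the 6 Sgk1 windows, where it begins 189 bases before the start. That start lies 776 bases upstream of the last of the Sgk1 starts in the table. The shorter TGTTCT, which the longer element contains on each strand, was in 3 of the 6 Sgk1 windows, in no window of the other 8 genes, and in 16.1% of all windows. GGCGCC was in the Aqp3, Aqp11 and Cftr windows and in 9.59% of all windows. The estrogen receptor element (0.0639% of all windows) and TGACGTCA (1.55%) were in none of the 14 windows of these genes. A match describes the letters and is not evidence of binding.

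The median number of beads behind a probe was 39 to 42 per array, and 16620 to 17536 probes were above background, meaning a detection p-value under 0.05. CKO array E stood apart, with a mean correlation with the other arrays of 0.936, against 0.953 to 0.970 for the others. Of the 6 pan-epithelial markers 5 were above background on all 6 arrays and of the 6 luminal markers 5; the exceptions, Epcam and Calb1, were above it on 0 arrays. Stroma markers were present too, 4 of 9 on all arrays, with a list mean of 6.44 to 6.67 in Control and 5.93 to 7.82 in CKO on the log2 scale. Of these, Col1a1 and Col1a2 were above background on 1 Control and 2 CKO arrays each, so they entered the mean only with CKO arrays counted. The 3 erythroid markers tested averaged 8.83 to 10.05 in Control and 9.04 to 10.59 in CKO. The 2 smooth muscle markers tested averaged 6.17 to 8.28 in Control and 6.01 to 7.82 in CKO. Bmpr1a was lower on all 3 CKO arrays by its brighter probe (difference -0.60, exact two-sided permutation p = 0.1, the smallest that 3 against 3 allows). It did not pass by limma (adjusted p 0.976), and 5.01% of all genes tested were likewise lower with groups that did not overlap. The other Bmpr1a probe had overlapping groups, and whether a probe lies in the deleted part is not known.

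**Figure D1:**
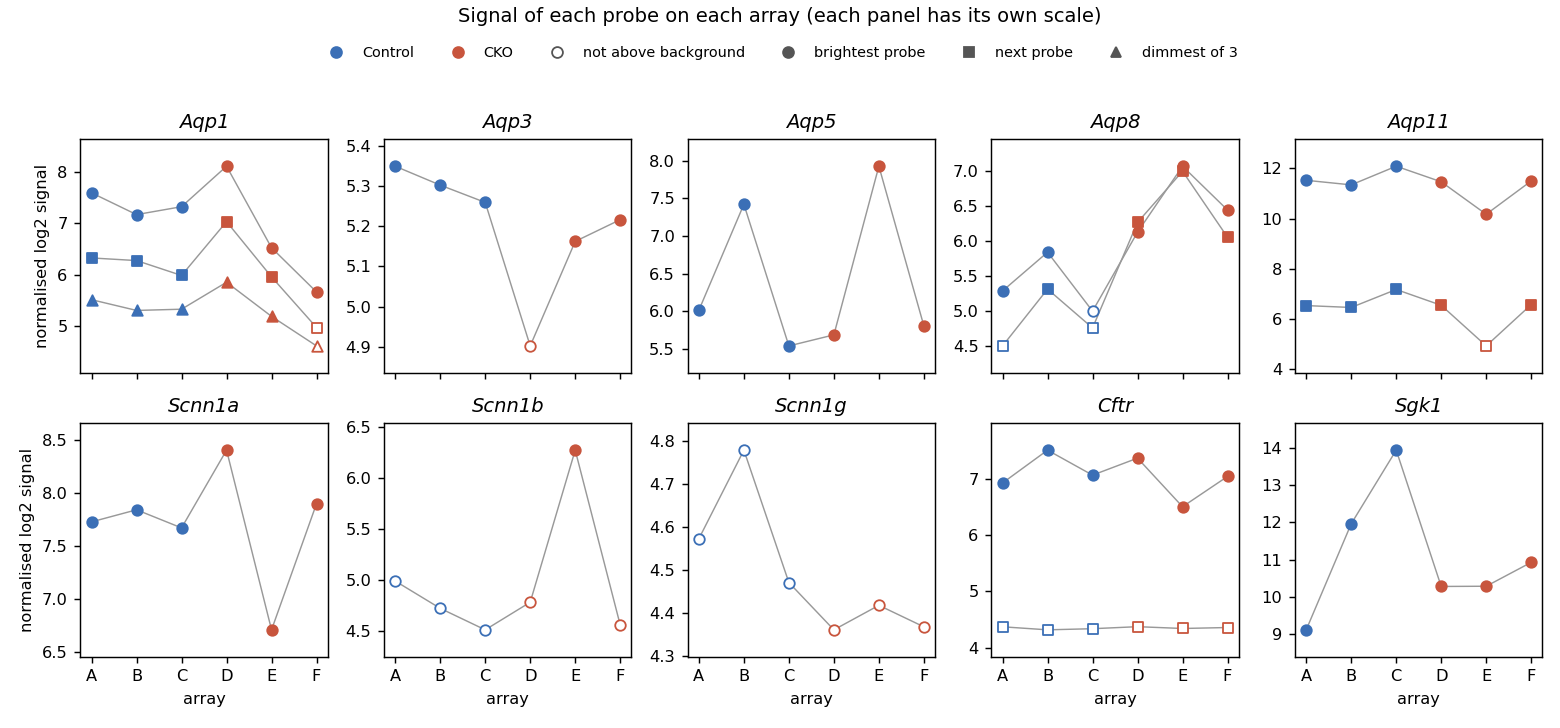
Normalised log2 signal (vertical axis, a scale per panel) of all 15 probes on the 6 arrays (horizontal axis; blue Control, red CKO; open symbols not above background; grey lines join the values of 1 probe and show no order). The Aqp8 probes separate the groups, but Control C is open on both and Control A on the dimmer. Sgk1 runs from 9.12 to 13.94 within Control, and Scnn1b is above background on array E only.

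Among the 8 genes tested, the groups were separate for Aqp8 and Aqp3 only. Aqp8 encodes a channel for water and small solutes such as hydrogen peroxide. The brighter Aqp8 probe read 5.29, 5.84 and 5.0 on Control arrays A, B and C, and 6.13, 7.07 and 6.45 on CKO arrays D, E and F, all on the normalised log2 scale. It was above background on all 3 CKO arrays and on 2 of the 3 Control arrays. It thus met the filter of at least 3 arrays only with CKO arrays counted. Control averaged 5.38 ± 0.43 (SD, n = 3), and the mean of the CKO arrays was 6.55 ± 0.48 (SD, n = 3). The difference of 1.17 (SE 0.32, 95% confidence interval 0.40 to 1.94) had an unadjusted p of 0.00917 by limma and an adjusted p of 0.976, so Aqp8 did not pass. With Control C not above background, the size of this difference is uncertain. The unadjusted p is no support for it, because the filter was met only with CKO arrays counted. Across the array 4.72% of the 11940 genes tested had an unadjusted p under 0.05, and Aqp8 was 1 of the 8 fluid control genes tested that did.

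The other Aqp8 probe gave the same order of groups. It read 4.50, 5.32 and 4.76 in Control, where array B alone was above background, and 6.27, 7.0 and 6.06 in CKO, where all 3 were. This probe entered the filter only through the CKO arrays, and with Control A and C not above background no difference is given for it. Its order of groups is therefore no support for the brighter probe. The exact two-sided permutation p of the brighter probe was 0.1, the smallest possible here. The probes measure the same RNA and are no replicates of each other.

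Before normalisation the separation of Aqp8 was narrower. On the brighter probe the raw intensity was 103.9, 125.1 and 90.8 in Control and 121.3, 199.3 and 139.5 in CKO, so Control B lay above CKO D, by less than the standard error over beads of either value (6.71 and 6.59). On the other probe the raw groups did not overlap: the highest Control value was 106.5 and the lowest CKO value 120.8. In the authors' deposited intensities, which are background-subtracted, the brighter probe gave 23.2, 41.7 and 15.3 in Control and 54.2, 118.8 and 71.5 in CKO. Array E was the highest on both probes; without it the difference on the brighter probe was 0.90. With no background correction it was 0.60, and with the deposited values 1.63.

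**Figure D2:**
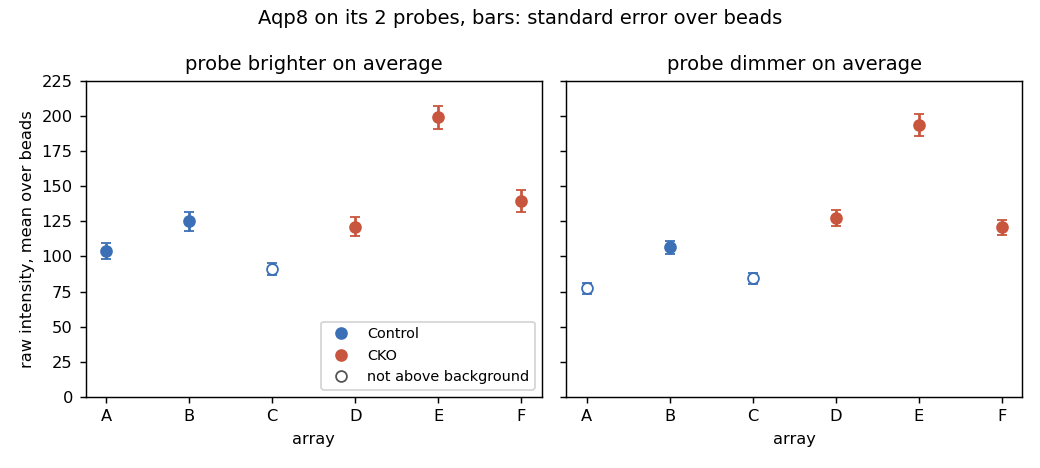
Raw intensity of Aqp8 (vertical axis, from 0) on the 6 arrays for its brighter (left) and dimmer (right) probe; bars are the standard error over the beads of 1 array, blue is Control, red is CKO and open symbols are not above background. Array E is highest on both probes, at 199.3 and 193.4, and on the brighter probe Control B (125.1) lies just above CKO D (121.3).

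Aqp3 encodes an aquaglyceroporin, which passes glycerol as well as water. It read 5.35, 5.30 and 5.26 in Control and 4.90, 5.16 and 5.22 in CKO, near the background, and array D was not above it. Every CKO value was under every Control value, but the closest pair, Control C and CKO F, were only 0.04 apart. The difference was -0.21 (SE 0.16, 95% confidence interval -0.60 to 0.18, adjusted p 0.976). Aqp3 and Aqp8 were thus 2 of 8 tested genes with groups that did not overlap, where 10.6% of all genes tested did not (5.64% higher in CKO and 5.01% lower).

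Aqp1, a water channel typical of endothelium and red cells, was measured by 3 probes with 1 shared pattern. The brightest read 7.60, 7.17 and 7.33 in Control and 8.11, 6.52 and 5.66 in CKO. CKO thus held both the highest array (D) and the lowest (F), 5.46-fold apart, while Control spanned 1.34-fold. The other probes repeated this: array D was the highest and F the lowest on each, with F not above background on either. By the brightest probe the difference was -0.60 (SE 0.58, adjusted p 0.976), and it was -0.046 without F and -1.27 without D. The other probes differed by -0.21 and -0.16, and without F by 0.30 and 0.14.

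Stroma and endothelium markers were higher on D than on F, as Aqp1 was. On E, Aqp1 lay below every Control array, whereas the means of both marker lists lay above. The markers were split on E: Lum and Dcn of stroma and Kdr and Cldn5 of endothelium stayed within their Control range. The mean of the 7 stroma markers tested was 7.82 on D, 7.35 on E and 5.93 on F, and that of the 6 endothelium markers tested was 5.71 on D, 6.34 on E and 4.81 on F. In Control the endothelium mean was 5.07 to 5.32. Of the 7 endothelium markers 0 were above background on all arrays and 6 on at least 3. The mean of the 3 erythroid markers tested was higher on F (10.59) than on D (9.04), the reverse of Aqp1. The part of these cells in the Aqp1 values was not tested, and in RNA from bulk samples fewer cells of a type and less RNA per cell cannot be told apart.

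Aqp5, a channel of secretory glands, was high on 1 array of each group. It read 6.01, 7.42 and 5.54 in Control and 5.69, 7.93 and 5.80 in CKO. Arrays B and E thus stood above the other 4, which spanned 5.54 to 6.01. The difference was 0.15 (SE 0.73, adjusted p 0.983), and it changed sign without A (-0.0060), C (-0.24) or E (-0.58). Of the 7 markers of glandular epithelium 4 were tested, and none of these was high on both B and E alone as Aqp5 was. Their mean was 8.24 on E and 6.65 to 7.46 on the other arrays. Prss29 read 10.53 on E but 5.23 on B, Cxcl15 read 9.15 on B but 6.90 on E, Aldh1a1 was lowest on E (4.74), and Sox9 was lower on B (9.71) than on every CKO array. Their part in the Aqp5 values was not tested.

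Aqp11, an aquaporin that sits mainly in membranes inside the cell, was bright on 1 of its 2 probes. That probe read 11.53, 11.34 and 12.09 in Control and 11.47, 10.17 and 11.50 in CKO. Array E differed from the mean of the other 5 arrays by -1.42, whereas D and F lay within the Control range. The dimmer probe behaved alike, at 4.91 on E, not above background, and 6.45 to 7.17 on the other arrays. The difference by the brighter probe was -0.61 (SE 0.41, 95% confidence interval -1.59 to 0.37, adjusted p 0.976) with all arrays and -0.17 without E.

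**Figure D3:**
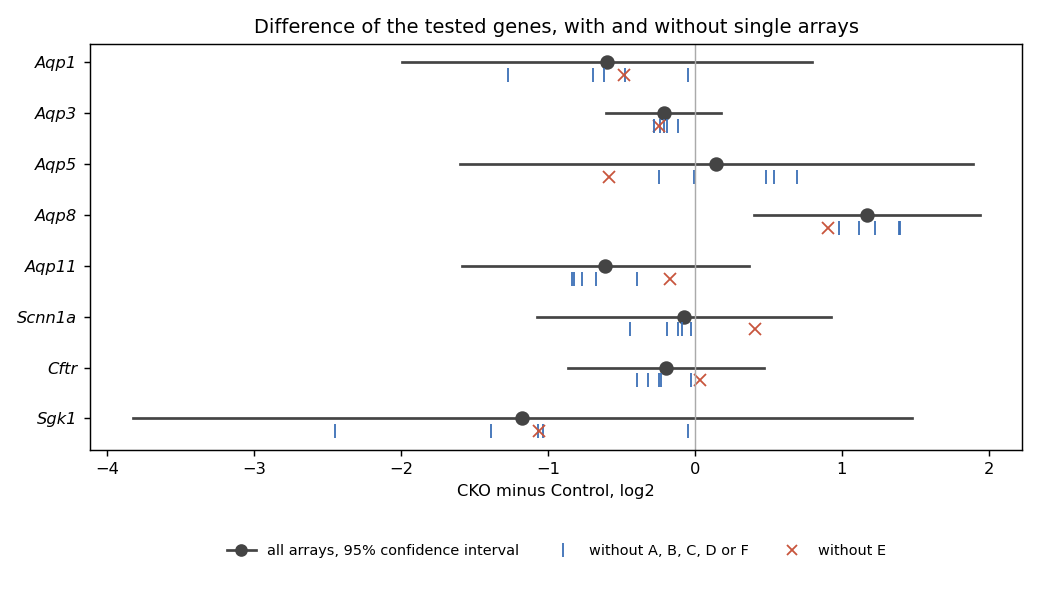
Log2 difference, CKO minus Control (horizontal axis), of the 8 fluid control genes tested: dots and lines are the estimate with all 6 arrays and its 95% confidence interval, and the marks beneath are estimates with 1 array left out (red cross: without E). Aqp8 stays right of 0 throughout, Aqp5, Scnn1a and Cftr fall on both sides, and Sgk1 ranges from -2.45 to -0.042.

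Of the ENaC subunits only the alpha subunit gene was tested. Scnn1a encodes the subunit needed for the channel to conduct. It read 7.73, 7.84 and 7.67 in Control and 8.41, 6.71 and 7.90 in CKO. Control spanned 1.13-fold and CKO 3.24-fold, with D and F above and E below every Control array. The difference was -0.076 (SE 0.42, 95% confidence interval -1.08 to 0.92, adjusted p 0.985), and it was 0.41 without E.

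The beta and gamma subunits were near or below background. Scnn1b was above background on array E alone, where it read 6.28 with a raw intensity of 142.9 and a standard error over beads of 5.50; the other arrays read 4.51 to 4.99. Scnn1g was above background on 0 of the 6 arrays, with raw intensities of 65.0 to 90.5, so no direction is given for it. Neither gene entered the test, and a signal below background does not show that the subunit is absent. On array E, then, Scnn1b was highest while Scnn1a was lowest.

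Cftr, the chloride channel, had a narrow range. Its brighter probe read 6.93, 7.51 and 7.07 in Control and 7.37, 6.50 and 7.04 in CKO, a 2.01-fold spread over all 6 arrays. The groups overlapped, with the highest value on Control B and the lowest on CKO E. The difference was -0.20 (SE 0.28, 95% confidence interval -0.86 to 0.47, adjusted p 0.977), and 0.037 without E. The other Cftr probe was above background on 0 arrays. Array E was the highest or lowest for 5 of the 8 tested genes, a share close to that of all genes tested (53.5%), so this is not particular to fluid control genes.

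Sgk1 varied far more among Control arrays than between the groups. It read 9.12 on Control A, 11.97 on B and 13.94 on C, with raw intensities of 674.9, 4345 and 15744. CKO arrays read 10.29, 10.29 and 10.93, with raw intensities of 1211, 1288 and 1906. All CKO arrays thus lay inside the Control range, above A and below B and C. The standard error over beads was 2.20% to 3.89% of the Sgk1 signal on each array, from 38 to 47 beads, and covers bead noise only.

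Sgk1 averaged 11.68 ± 2.42 (SD, n = 3) in Control, while the CKO mean was 10.50 ± 0.37 (SD, n = 3). The difference of -1.17 (SE 1.11, 95% confidence interval -3.83 to 1.48, adjusted p 0.976) did not pass, and the exact two-sided permutation p was 0.6. Its size rests on single Control arrays: it was -2.45 without A and -0.042 without C. Sgk1 had a single probe, so its levels have no check from another probe.

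Genes with the closest profile over the 6 arrays were sought for each fluid control gene above background on every array. This left out Aqp3, Aqp8, Scnn1b and Scnn1g. The search was among 8486 genes also above background on every array. Closeness is the root mean square difference of log2 values, each gene centred on its own mean. For Sgk1 the nearest was Id1, a BMP target that encodes an inhibitor of basic helix-loop-helix factors, at 0.26, and the next was Dmpk, a protein kinase gene, at 0.57. Id1 read 6.95, 9.79 and 11.23 in Control and 7.70, 7.47 and 8.68 in CKO, so it too was lowest on Control A and highest on Control C. Dmpk read 5.72, 7.58 and 8.78 in Control and 6.42, 5.62 and 6.29 in CKO. Id3, of the same family as Id1, came 4th at 0.64 and is named after its value was seen.

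The profiles nearest to the other genes searched followed array E or D and F. For Aqp11 these were Prelid2 (0.055) and Fggy (0.097), for Scnn1a Mical2 (0.11) and Hps4 (0.12), and for Cftr Zfp523 (0.074). Each of these 5 genes was lowest on array E. For Aqp1 they were Cavin2 (0.23), a caveolar protein gene, and Timp2 (0.24), an inhibitor of matrix proteases. The stroma marker Dcn came 5th (0.28), after Hpgd and Gpc3, and is named after its value was seen. It does not stand for the stroma list. On E, Thy1, Col1a1, Col1a2, Col3a1 and Vim lay above every Control array, unlike Aqp1, while Dcn and Lum stayed within their Control range. For Aqp5 they were Degs2 and F2r, at 0.36 and 0.37, both highest on E. Among the fluid control genes themselves Scnn1a and Cftr were the closest pair, at 0.29, and Sgk1 lay at 1.35 or more from every other.

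**Figure D4:**
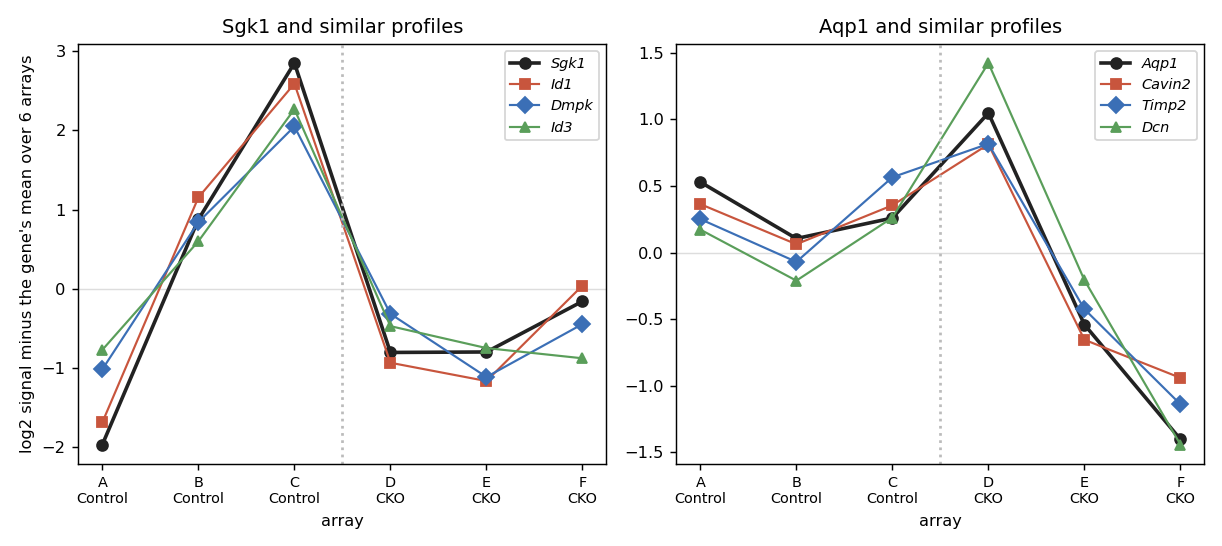
Log2 signal minus each gene's mean over the 6 arrays (vertical axis) on Control arrays A to C and CKO arrays D to F (horizontal axis), for Sgk1 with Id1, Dmpk and Id3 (left) and Aqp1 with Cavin2, Timp2 and Dcn (right); lines join the values of 1 gene and show no order. In the left panel all 4 genes peak on Control C, and in the right panel all 4 peak on CKO D and are lowest on CKO F. The genes beside Sgk1 and Aqp1 were picked for closeness over these same 6 arrays, so the shared peaks follow from that choice. Id3 and Dcn were added after their values were seen.

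Further genes of fluid and ion transport were taken from 8 lists of 80 genes, of which 53 were tested and 0 passed. Their median difference was -0.0082 against -0.011 for all genes tested and -0.20 for the 8 fluid control genes. The groups did not overlap for 5 of the 53 (9.43%), 3 higher and 2 lower in CKO, close to the 10.6% of all genes. Adjusted p-values of the genes below are from limma and were all 0.976 or more.

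Of the other aquaporins 1 of 7 was tested, Aqp4, and the other 6 were above background on 0 arrays. Aqp4 read 4.65, 7.16 and 8.43 in Control and 7.38, 4.46 and 6.75 in CKO (difference -0.55, SE 1.11). Its groups overlapped widely, and its other probe differed by 0.10.

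Proteases that cleave ENaC to open it, with their inhibitors, had 7 of 8 genes tested and 0 called in either direction. All 7 were above background on every array, with differences from -0.084 to 0.41. The smallest p belonged to Furin (0.24, SE 0.17), a convertase, followed by St14 (0.41, SE 0.44), which encodes matriptase, and Tmprss2 (0.15, SE 0.25). The dimmer Furin probe differed the other way, by -0.077. St14 read 11.09 on array E and 9.46 to 9.93 on the others, so its difference rests on E.

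Control of ENaC by SGK and WNK kinases and ubiquitin enzymes had 11 of 12 genes tested and 0 called, 2 with positive and 9 with negative differences. Usp10, a ubiquitin protease, was lower on all CKO arrays, at 6.37, 6.32 and 6.38 against 6.82, 6.85 and 6.93 in Control (difference -0.51, SE 0.15). Its dimmer probe had overlapping groups and differed by -0.063. Usp2, another ubiquitin protease, differed by -1.09 (SE 0.86) and read 6.46, 7.56 and 9.84 on Control arrays A, B and C, with CKO between 6.15 and 7.68. Nedd4, a ubiquitin ligase gene, differed by -0.21 (SE 0.17).

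For corticosteroids 4 of 7 genes were tested and 0 called. The receptor genes Nr3c1 and Nr3c2 were above background on 0 arrays, which does not show that they are absent. Tsc22d3, a glucocorticoid response gene, differed by -0.67 (SE 0.31), and its other probe was lower on all CKO arrays, with a difference of -0.99. Per1, a clock gene, differed by 0.086 (SE 0.25) and Zbtb16, a transcription factor gene, by 0.047 (SE 0.30). The probes of Per1 disagreed: its dimmest read 7.61, 6.46 and 6.35 in CKO and 5.76, 5.75 and 5.91 in Control, while the remaining Per1 probe differed by 0.057.

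The sodium pump and sodium transporters had 13 of 14 genes tested and 0 called, 6 above 0 and 7 below. Slc12a7, a potassium chloride cotransporter, was higher on all CKO arrays, at 7.31, 6.84 and 7.18 against 6.59, 6.44 and 5.81 in Control (difference 0.82, SE 0.26). Fxyd5, a regulator of the sodium pump, differed by 0.74 (SE 0.36) and Slc9a2, a sodium proton exchanger, by -0.61 (SE 0.32), both with groups that overlapped. The other 2 Fxyd5 probes differed by 0.42 and 0.11, and the other Slc9a2 probe by -0.020.

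Chloride and bicarbonate transport had 9 of 15 genes tested and 0 called, 6 above 0 and 3 below. Slc4a7, a sodium bicarbonate cotransporter, was higher on all CKO arrays, at 8.24, 9.11 and 8.47 against 8.22, 7.64 and 7.97 (difference 0.66, SE 0.28); CKO D exceeded Control A by only 0.02. Slc26a6, an anion exchanger that works beside CFTR, had the largest difference of all these genes, 2.31 (SE 1.24). The size of this difference is uncertain, because Slc26a6 was above background on only 2 of the 3 Control arrays. It met the filter only with CKO arrays counted. Slc26a6 read 9.65, 8.25 and 4.99 in Control and 9.16, 11.49 and 9.18 in CKO. It was lowest on Control C, where Sgk1 was highest, and the groups overlapped. Car12, a membrane carbonic anhydrase, ran alike with 12.20, 10.85 and 8.42 in Control and 11.48, 13.44 and 11.55 in CKO, and is named after its values were seen. Clcn2, a chloride channel gene, differed by 0.58 (SE 0.30).

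Of the epithelial potassium channels 1 of 7 was tested, Kcnk5, which differed by 0.54 (SE 0.53). Signalling through cyclic AMP to CFTR had 7 of 10 genes tested and 0 called. The catalytic subunit gene Prkacb of protein kinase A was lower on all CKO arrays (-0.36, SE 0.17) and the regulatory subunit gene Prkar1a higher on all (0.25, SE 0.15). Pde4b, a phosphodiesterase gene, was above background on all 3 CKO arrays but on only 1 Control array. It entered the filter only through the CKO arrays, so no difference is given for it.

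**Figure D5:**
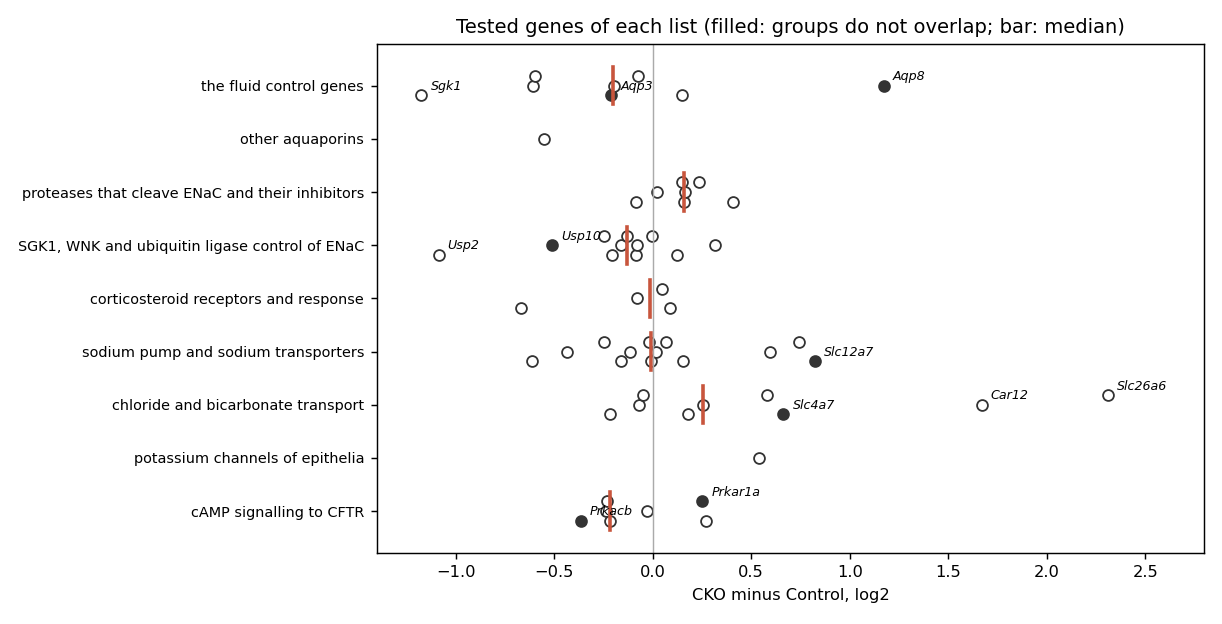
Log2 difference, CKO minus Control (horizontal axis), of each tested gene in the fluid control set and the 8 lists (vertical axis); filled dots mark genes whose groups do not overlap and red bars the median of a list with over 1 gene. Medians lie between -0.22 and 0.26, and 5 genes of the 8 lists are filled: Usp10, Slc12a7, Slc4a7, Prkacb and Prkar1a.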

How the data were processed

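Per the file headers, each scanner table deposited holds, by probe, the bead-averaged linear intensity with its standard error, a bead count and a detection p-value. A further table of processed intensities, from the authors, is by its values background-subtracted, equal in distribution on each array and linear. Its software is not given in the sources used.

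Raw intensities went through neqc (limma 3.58.1, R 4.3.3): normexp, with negative controls that it infers from the detection p-values, then an offset of 16, quantile normalisation and log2. The offset shrinks differences of dim genes. Probes with a detection p-value under 0.05 on at least 3 arrays were kept (17291), named through RefSeq GRCm38.p6 by accession (29370 probes of the array) or symbol (6953), otherwise by the file (8958). The brightest probe stood for its gene.

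CKO was compared with Control by lmFit and eBayes with Benjamini-Hochberg adjustment over 11940 genes at 0.05. Single probes had exact permutation tests. The steps were tested on simulated data. The members and lists were chosen with earlier results of these data known. Named genes are the members, any passing or otherwise up to 3 genes of smallest p per list, and the 2 nearest profiles for members above background on all arrays; 1 such profile is not reported here. The number of arrays limits the precision. Figures used matplotlib 3.10.9.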

Additional observations from a re-analysis of the deposited data

How the results depend on the processing

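All alternatives were planned. Under each of 17 alternatives 0 of the fluid control genes were called, higher or lower, with adjusted p-values of at least 0.289, and genes lower in CKO stayed at 0 over the whole array. Genes higher in CKO, 2 with the processing described, were 1 with normexp without controls, no background correction, median scaling, cyclic loess or the deposited values, 0 with no filter or the strict filter (detection p-value under 0.01 on all arrays), 3 in the fit over probes and with trend and robust, 5 with array weights, and from 0 to 1 when any 1 array was omitted. The sign of 5 of the 8 genes tested never changed where they were tested. Aqp3 and Aqp8 were not tested under the strict filter. The dimmer Aqp1 probes, which turned positive without F, are outside this count. Aqp5 turned to -0.98 and Scnn1a to 0.046 with array weights. Omitting 1 array at a time, Aqp5 ran from -0.58 to 0.69, Scnn1a from -0.44 to 0.41, Cftr from -0.39 to 0.037, Sgk1 from -2.45 to -0.042, Aqp1 from -1.27 to -0.046, Aqp11 from -0.83 to -0.17, Aqp3 from -0.27 to -0.12 and Aqp8 from 0.90 to 1.40. Over the other alternatives Aqp8 ran from 0.60 to 1.63, Aqp1 from -1.24 to -0.32 and Aqp11 from -0.66 to -0.097. The causes were not tested. Signal over background limits Aqp3, Aqp8, Scnn1b and Scnn1g. No paired analysis was possible because the groups share no replicate labels.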
